A study of Macaca fascicularis with 9 samples.

Results

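The cytosolic ribosomal protein genes were described in single nuclei of the thalamus, across cell types and treatments. They were picked out by their names, with earlier results of the same data known, as the features whose symbols have the form of a small subunit gene (RPS with a number), a large subunit gene (RPL with a number) or a gene of the acidic stalk (RPLP with a number), or are RPSA. This gave 41 of 29128 features, of which 14 code for small subunit proteins and 27 for large subunit or stalk proteins, counting near copies of these genes. RPSA and RPLP2 were not analysed here. A further 10 features have names that start with RPS or RPL but are not ribosomal proteins, such as the S6 kinase genes, and were kept out.

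Each cytosolic ribosome is built from a small subunit, which reads the messenger RNA, and a large subunit, which joins amino acids. Each subunit is a scaffold of ribosomal RNA with single copies of many proteins, so cells make these proteins in matched amounts. Their messenger RNAs are short, abundant and spliced, and carry a terminal oligopyrimidine (TOP) tract through which the TOR kinase controls their translation. In brain tissue they are found in all cell types, and in preparations of nuclei they come both from newly made transcripts and from cytoplasmic RNA that stays with a nucleus.

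The animals were 9 female cynomolgus monkeys (Macaca fascicularis), and the tissue was frozen thalamus collected 2 weeks after the last dose. In the ASO group, 3 animals had received a single intrathecal dose of 4 mg of an antisense oligonucleotide (ASO). Its target is MALAT1, a noncoding RNA of the nucleus. In the OTV group, 3 animals had received 4 biweekly intravenous doses of OTV:MALAT1 at 30 mpk, where OTV is a transport vehicle that carries the oligonucleotide into the brain by way of the transferrin receptor. The saline group of 3 animals received 4 biweekly intravenous doses of saline and is the control of both. No intrathecal saline group was part of the analysis, so route, dosing schedule and agent cannot be told apart in any comparison of the ASO group. Nuclei were sorted on the DNA stain DAPI and captured with 10x Genomics droplets, 1 library per animal, and no label gives the animals' ages. Animals are called here by group and number in accession order, which carries no further meaning.

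The 9 libraries held 79994 nuclei, 2956 to 11992 per animal, and 19981249 to 98850459 unique molecular identifiers (UMIs, each standing for 1 captured RNA molecule). The median nucleus held 2579 UMIs in OTV 3, the lowest of all, and up to 7791 in ASO 2. MALAT1 made up 5.38 to 6.36% of UMIs in saline animals, 4.15 to 5.60% in ASO animals and 3.12 to 3.80% in OTV animals. The authors' cell type names matched their markers: in each of oligodendrocytes, oligodendrocyte precursor cells (OPCs), myeloid cells and astrocytes, the type's own marker list had the highest summed level in 9 of 9 animals and none of its detected markers was at 0. The myeloid nuclei also held endothelial markers (3 of 5 in the files, none at 0) at 185 to 890 counts per 1000000 UMIs (CPM), against 5.31 to 15.7 CPM in the other 3 types, lowest in OTV 1. They held astrocyte markers (6 of 6) at 683 to 2548 CPM. Saline 3 stood apart in its makeup. Its neuron markers summed to 1850 CPM, against 198 to 544 in the other animals, and its oligodendrocyte markers to 1675, against 4451 to 8583. Saline 3 and ASO 3 also had low scores for thalamic against telencephalic astrocyte genes, −2.20 and −2.09, against −0.32 to 1.16 in the other 7. Of 79232 distinct barcodes, 760 (0.959%) occurred in 2 or more libraries.

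Summed over the 41 genes, ribosomal protein RNA was a small part of the nuclear RNA and was lower in OTV animals than in the other groups. In all nuclei it took 0.104, 0.0988 and 0.0577% of UMIs in saline animals 1, 2 and 3, and 0.0971, 0.162 and 0.114% in ASO animals 1, 2 and 3. OTV animals 1, 2 and 3 had 0.0796, 0.0511 and 0.0483%. Saline 3 lay below the other saline animals and near OTV 2 and OTV 3, ASO 2 was the highest of all, and OTV 1 was above the other OTV animals. The mean of the OTV group was 68.6% of the saline mean, with 2 of 3 OTV animals below all saline animals, and 48.0% of the ASO mean, with 3 of 3 below all ASO animals. The ASO mean was 143% of the saline mean, with overlapping groups. No test was run on these sums, because the genes were chosen with earlier results of the same data known.

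**Figure D1:**
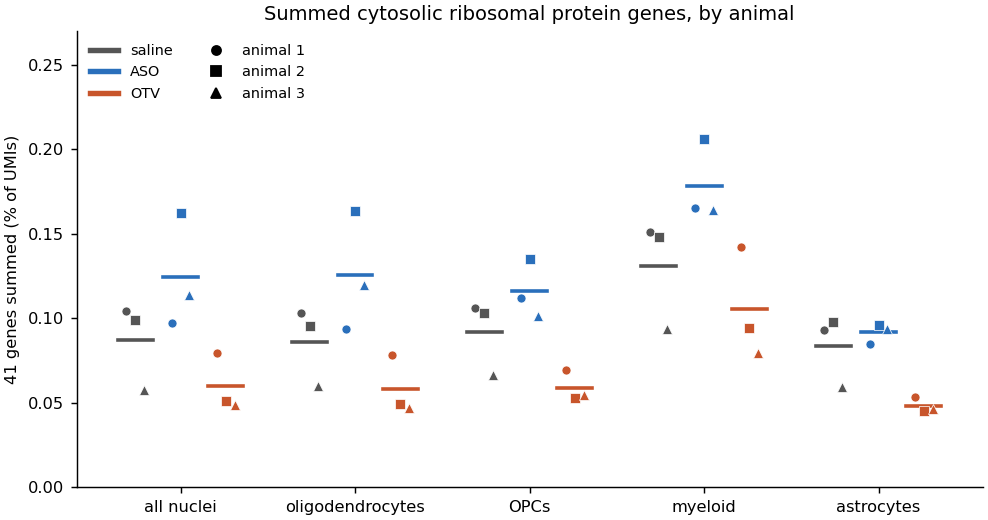
Summed UMIs of the 41 ribosomal protein genes as a percentage of all UMIs (vertical axis, from 0), per animal (points, shaped by animal number) and group mean (bars), in all nuclei and 4 cell types. All OTV animals lie below all ASO animals in each, OTV 1 lies above saline 3 in each but astrocytes, saline 3 lies below the other saline animals in each, and ASO 2 is the highest animal in all but astrocytes.

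The same order of the group means held within cell types, though in astrocytes the log2 difference of ASO from saline, 0.17, was −0.062 without saline 3. The OTV mean was 67.4% of the saline mean in oligodendrocytes, 63.9% in OPCs, 80.4% in myeloid cells and 57.7% in astrocytes. Against the ASO mean it was 46.2% in oligodendrocytes, 50.6% in OPCs, 59.0% in myeloid cells and 52.5% in astrocytes. In astrocytes only the OTV group was separate: its animals had 0.0447 to 0.0532%, the saline animals 0.0591 to 0.0976% and the ASO animals 0.0848 to 0.0962%. Neurons, with only 17 to 527 nuclei per animal, had an OTV mean of 62.8% of the saline mean and were not used for tests.

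In the summed share of all nuclei, the highest and lowest animal of each group differed by a larger ratio than the OTV or ASO mean did from saline. Only the OTV and ASO means differed by more than that. Most of the genes moved together in the animals that stood apart, saline 3, ASO 2 and OTV 1. Of the 38 genes with enough counts to be tested in all nuclei, 36 were lowest in saline 3 among saline animals, a pattern that 42.8% of all 21854 features tested had. ASO 2 was the highest of the 9 animals for 35 of 38, against 10.8% of all features. OTV 1 was the highest OTV animal for 35 of 38, against 31.6% of all features. The middle gene was lower in saline 3 than in the mean of the other saline animals by a log2 difference of −0.93, whereas the middle feature of all differed by −0.01. ASO 2 differed from the other ASO animals by 0.71 for the middle gene and −0.13 for the middle feature. OTV 1 differed from the other OTV animals by 0.66 for the middle gene and −0.03 for the middle feature.

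Genes of opposite kinds show how this common swing varied. RPS26, a small subunit protein at the exit of the messenger RNA channel, had the largest mean swing over the 3 animals, with −1.70 in saline 3, 0.94 in ASO 2 and 1.26 in OTV 1 on the log2 scale. RPS6, a small subunit protein phosphorylated by S6 kinases, moved by only −0.17, −0.22 and 0.20 in the same animals. RPL7L1, a large subunit paralog that works in ribosome assembly, moved by 0.04, 0.31 and 0.07. Nuclear-encoded respiratory chain genes, another set of short and abundant RNAs, varied in the same animals: their summed share was 0.0719% in saline 3 against 0.0949 and 0.0976% in the other saline animals, and 0.112% in ASO 2 against 0.0913 and 0.102% in the other ASO animals. The part of RNA quality or of cytoplasmic RNA in these differences was not tested.

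After the intrathecal ASO, no ribosomal protein gene passed the test against saline. In all nuclei 0 of 38 was called by edgeR's quasi-likelihood test at an adjusted p under 0.05 over all features, 1 had an unadjusted p under 0.05, and DESeq2 called 1. The background of calls was as low, with 0.0320% of all features called either way. The middle gene had a log2 difference of 0.59, and that of all features was −0.01. By type, edgeR called 0 of 38 genes in oligodendrocytes (background 0.394%), 0 of 37 in OPCs (0.262%), 0 of 37 in myeloid cells (0.197%) and 0 of 37 in astrocytes (0.0147%). The numbers at an unadjusted p under 0.05 were 2, 6, 6 and 0 in these types, and DESeq2 called 1 in oligodendrocytes and 0 in the other 3. The middle log2 differences were 0.51, 0.45, 0.45 and 0.04. The share of all features with an unadjusted p under 0.05, or called by DESeq2, is not given by type or in all nuclei. Those numbers are thus not read as particular to these genes.

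Against saline, the OTV group had lower levels of most genes, but few passed the test. In all nuclei 29 of 38 log2 differences were negative, with a middle value of −0.45 against −0.06 for all features. Only RPS6 and RPLP0 fell, 2 of 38 genes, while 9.94% of all features were called lower. All 3 OTV animals were below all 3 saline animals for 4 of 38 genes, against 22.3% of all features, and saline 3 was as low as the OTV animals for most genes. The count was 1 without OTV 2, OTV 3, saline 1 or saline 2, and 4 without saline 3. Backgrounds here and below are those of the fit with all animals. The share of all features called under an alternative or without an animal is not given. Changes of a count are thus not read as particular to these genes.

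By cell type, astrocytes had the most genes called lower after OTV, 12 of 37 (background 9.12% lower). OPCs had 8 of 37 (11.9%), oligodendrocytes 4 of 38 (11.7%) and myeloid cells 3 of 37 (7.26%). The middle log2 differences were −0.79 in astrocytes, −0.58 in OPCs, −0.54 in oligodendrocytes and −0.24 in myeloid cells. Over these 4 types 15 genes were called lower at least once, and RPS6 and RPLP0 in all 4. The share of all features called lower in as many types was not worked out, so how unusual this is remains unknown. The counts moved with single animals: the astrocyte count was 7 without ASO 1, 6 without OTV 2, 3 without OTV 3, and 4 without saline 1 or saline 2. The OPC count was 5 without OTV 2, 4 without OTV 3, saline 1 or saline 2, and 16 without saline 3. The oligodendrocyte count was 2 without OTV 3 or saline 1 and 7 without saline 3. Marker levels moved with these comparisons. Oligodendrocyte markers (7 of 8 in the files) summed to 484 to 767 CPM in astrocytes of OTV animals, against 362 to 434 CPM after saline and 463 to 729 CPM after ASO. In OPCs they summed to 769 to 1112 CPM after OTV, 407 to 660 CPM after saline and 846 to 1128 CPM after ASO. The OPCs' own markers (6 of 6) were at 12133 to 14003 CPM after OTV, below 14842 to 17567 CPM after saline and 15633 to 17083 CPM after ASO. The neuron markers (9 of 10) in OPCs were at 798 to 920 CPM after OTV, below 1034 to 1330 CPM after saline and 1099 to 1300 CPM after ASO. The pericyte markers (2 of 3) in astrocytes were at 113 to 131 CPM after OTV, below 142 to 168 CPM after saline and 183 to 199 CPM after ASO. In astrocytes, telencephalic genes (4 of 5) were at 1.73 to 1.77 CPM after OTV. They were at 6.12 to 164 CPM after saline and 2.30 to 262 CPM after ASO. In OPCs they were at 1.61 to 3.74, 4.12 to 47.0 and 1.24 to 39.4 CPM in the same order. In oligodendrocytes they were at 0.215 to 0.245, 0.942 to 9.17 and 0.190 to 4.64 CPM. Thalamic genes (9 of 9) in OPCs were at 720 to 986, 532 to 581 and 533 to 817 CPM. Only DMRTA2 (OPCs, oligodendrocytes) and LHX1 (OPCs) were at 0. The part of these levels in the counts was not tested.

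Between the OTV and ASO groups, which differ in agent, route and dose, the middle differences were larger. In all nuclei 36 of 38 log2 differences were negative, with a middle value of −1.05 against 0.00 for all features. Here 5 genes were called lower (background 11.1%): RPS6, RPS12, RPS13, RPLP0 and RPL35A. For 25 of 38 genes the 3 OTV animals lay below the 3 ASO animals, against 26.5% of all features. The count of called genes was 2 without ASO 1, ASO 2, OTV 2 or OTV 3, 3 without ASO 3, 8 without OTV 1 and 16 without saline 3, which is not one of the 6 animals compared but is part of the same fit. DESeq2 called 17. Without saline 3 and ASO 3 together, chosen after seeing the data, 14 were called. The share of all features called in these other fits is not given.

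**Figure D2:**
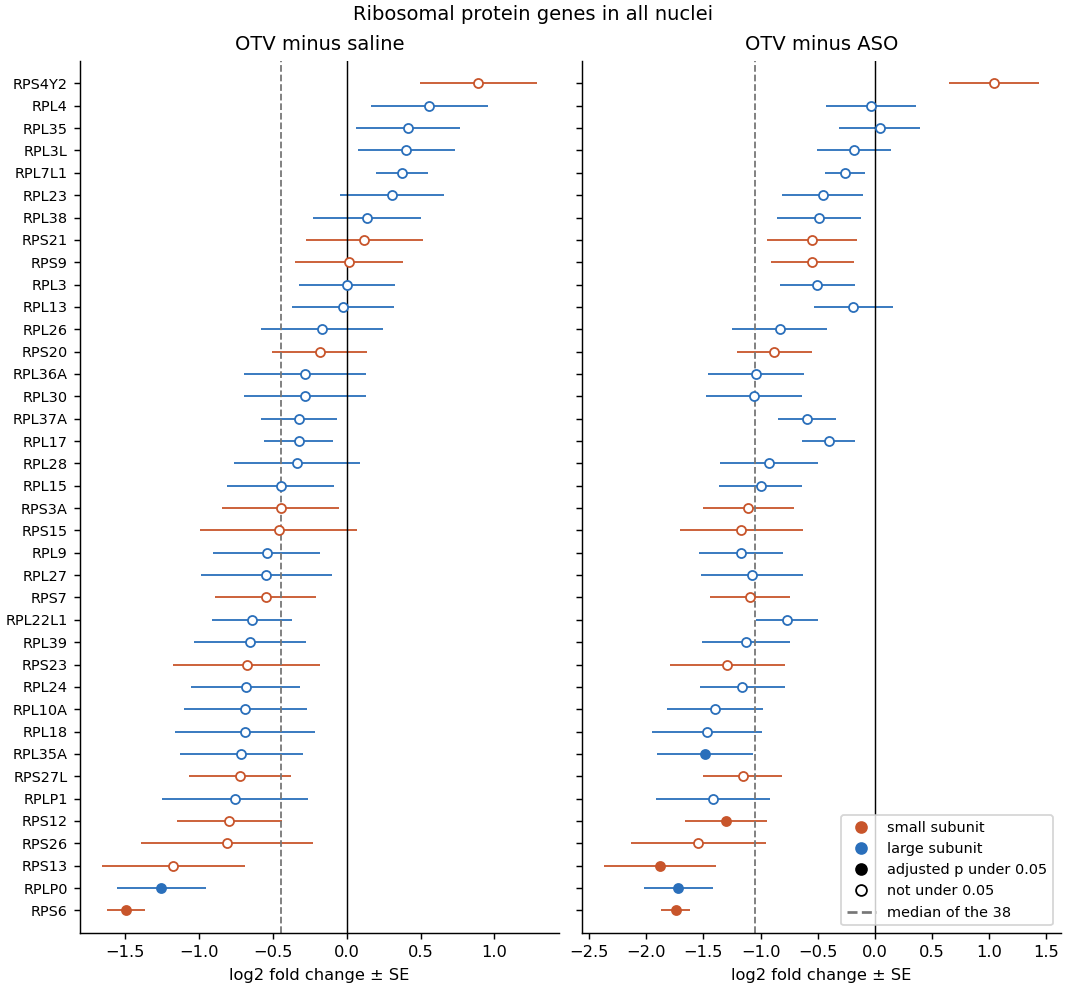
Log2 fold change (horizontal axis, point with its standard error) of the 38 ribosomal protein genes tested in all nuclei, OTV minus saline on the left and OTV minus ASO on the right. Filled points passed edgeR's test, 2 genes on the left and 5 on the right, the dashed line is the middle gene (−0.45 and −1.05), and RPS6 has the lowest value on the left with a short error bar.

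By type, the OTV group was called lower than the ASO group for 18 of 38 genes in oligodendrocytes (background 15.1%), 18 of 37 in OPCs (14.4%), 14 of 37 in astrocytes (12.5%) and 8 of 37 in myeloid cells (11.1%). In all, 22 genes were called lower in at least 1 type and 11 in at least 3. The 6 genes called lower in all 4 types were RPS6, RPS13, RPL9, RPL10A, RPL35A and RPLP0. For these counts across types, too, the matching share of all features was not worked out. The oligodendrocyte count was 6 without ASO 2, 10 without ASO 3 and 5 without OTV 2 or OTV 3, and the OPC count was 10 without ASO 2 or OTV 3 and 9 without OTV 2. The astrocyte count was 8 without ASO 1, 7 without ASO 2, 6 without OTV 3 and 9 without ASO 3, OTV 1, OTV 2, saline 1 or saline 2. The count over both directions in myeloid cells (background 20.5%) was 9 in all animals, 4 without ASO 1 or OTV 2, 5 without ASO 2 or OTV 3, and 15 without OTV 1. Beside the lists already given for OPCs and astrocytes, some others separated the OTV from the ASO animals. In astrocytes OPC markers were at 1323 to 1796 CPM after OTV and 2200 to 2387 CPM after ASO, and in OPCs astrocyte markers were at 556 to 686 CPM and 751 to 1053 CPM. In oligodendrocytes endothelial markers were at 6.04 to 8.60 CPM after OTV and 8.92 to 14.0 CPM after ASO, and T cell markers (4 of 4) at 17.6 to 19.9 CPM and 14.3 to 16.7 CPM. In myeloid nuclei neuron markers were at 153 to 200.4 CPM after OTV and 69.5 to 148 CPM after ASO, and endothelial markers at 185 to 741 CPM and 763 to 890 CPM. None of the markers in the files was at 0, and their part in these counts was not tested. Both sets of OTV comparisons share the OTV animals, so calls in one are not independent of calls in the other.

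RPS6, the classic target of S6 kinase in the small subunit, had the smallest adjusted p of the ribosomal protein genes in both OTV comparisons in all nuclei. In all nuclei its level was 129, 126 and 113 CPM in saline animals, 142, 132 and 167 CPM in ASO animals, and 44.4, 40.2 and 36.8 CPM in OTV animals. The OTV animals lay far below all others, with little spread in any group, and saline 3, ASO 2 and OTV 1 did not stand out as they did for other genes. Against saline RPS6 fell by 1.50 on the log2 scale (SE 0.13, edgeR adjusted p 0.0017). Against ASO it fell by 1.74 (SE 0.13, edgeR adjusted p 0.000703). These calls held under every alternative run and without each animal. RPS6 was singled out with earlier results known, so its place among the genes is a description.

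**Figure D3:**
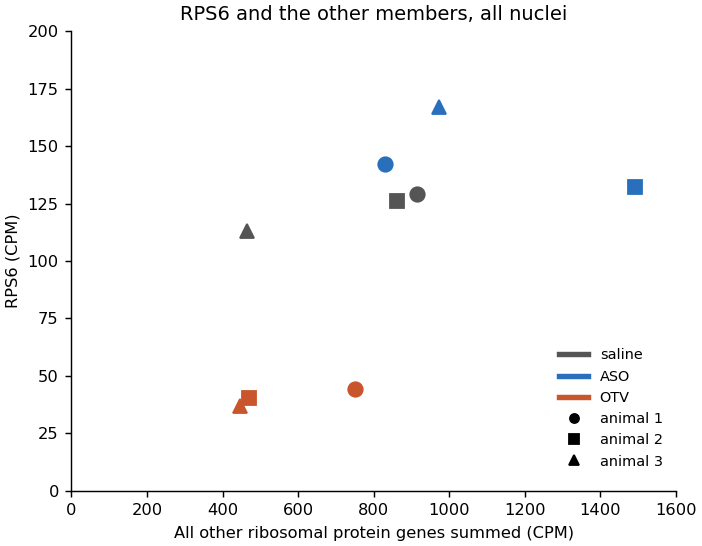
RPS6 in CPM (vertical axis) against the summed CPM of the 40 other ribosomal protein genes (horizontal axis, all other genes), 1 point per animal, in all nuclei. The OTV animals form a low band at 36.8 to 44.4 CPM of RPS6, and saline 3 has as little of the other genes as OTV 2 and OTV 3 but 113 CPM of RPS6.

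The RPS6 difference was found in each cell type. In oligodendrocytes the saline animals had 113, 110 and 90.9 CPM, the ASO animals 129, 129 and 152 CPM, and the OTV animals 39.6, 35.6 and 29.8 CPM. In OPCs the saline animals had 168, 164 and 128 CPM, the ASO animals 185, 153 and 199 CPM, and the OTV animals 47.6, 47.5 and 44.9 CPM. In myeloid cells the levels were 218, 197 and 172 CPM after saline, 252, 190 and 261 CPM after ASO, and 77.6, 68.9 and 42.5 CPM after OTV. In no type did an OTV animal reach the lowest animal of another group. Astrocytes had 169, 161 and 115 CPM after saline, 163, 123 and 199 CPM after ASO, and 60.3, 47.0 and 64.7 CPM after OTV. Against saline RPS6 fell on the log2 scale by 1.53 in oligodendrocytes (edgeR adjusted p 0.000478) and by 1.67 in OPCs (edgeR adjusted p 5.18e-05). It fell by 1.65 in myeloid cells (edgeR adjusted p 0.0012) and by 1.32 in astrocytes (edgeR adjusted p 0.0055). The sizes could not be told apart between types: over the 6 pairs of types, the smallest adjusted p of an exact permutation test of the difference between groups was 0.354.

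Fewer nuclei held an RPS6 molecule after OTV. With every nucleus thinned to 1000 UMIs, the share of nuclei with an RPS6 UMI was 12.2, 11.5 and 10.9% in saline animals, 13.3, 12.3 and 15.4% in ASO animals, and 4.57, 3.60 and 3.47% in OTV animals. Without thinning the shares were 44.4 to 52.8% in saline animals, 50.3 to 58.0% in ASO animals and 10.4 to 22.9% in OTV animals, where OTV 3 also had the shallowest nuclei. No cell type lacks RPS6, so there is no type against which free RNA in the droplets could be read, and its part was not tested. As a share of all ribosomal protein UMIs, RPS6 was 12.4 to 19.6% in saline animals, 8.14 to 14.7% in ASO animals and 5.58 to 7.86% in OTV animals.

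Leaving RPS6 out of the sum brought the OTV mean of the 40 other genes to 74.4% of saline and 50.7% of ASO in all nuclei. Only 1 of 3 OTV animals then lay below all saline animals, and in myeloid cells, where the mean was 88.9% of saline, it was also 1 of 3. In neurons RPS6 had 161, 220 and 107 CPM after saline, 278, 86.0 and 173 CPM after ASO, and 65.0, 50.3 and 60.0 CPM after OTV, again with no overlap. The gene DENND4C, which overlaps RPS6 in the RefSeq gene table of the assembly T2T-MFA8v1.1, had a mean of 136 CPM after saline and 118 CPM after OTV. Its log2 difference was −0.11 in all nuclei (edgeR adjusted p 0.559), −0.30 in OPCs (edgeR adjusted p 0.0577) and −0.41 in myeloid cells (edgeR adjusted p 0.0655). For the same comparison it was −0.12 in oligodendrocytes (edgeR adjusted p 0.427) and 0.02 in astrocytes (edgeR adjusted p 0.945). How reads from the overlap were counted was not tested, so the level of RPS6 carries that uncertainty. How reads were counted where a processed copy of a ribosomal protein gene lies elsewhere in the genome was not tested either. This holds for all the genes described here.

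RPS13 and RPS12 were the other small subunit genes called in all nuclei. RPS13, which lies where the subunits meet, had 18.0, 20.0 and 7.26 CPM in saline animals, 18.6, 36.2 and 18.5 CPM in ASO animals, and 9.16, 5.15 and 4.34 CPM in OTV animals. Saline 3 lay among the OTV animals, and ASO 2 was well above all others. Against ASO, RPS13 fell by 1.88 on the log2 scale (SE 0.49, edgeR adjusted p 0.0313), a call that was lost without ASO 1, ASO 2, OTV 2 or OTV 3 (up to adjusted p 0.108). In astrocytes, where saline 3 was less low, RPS13 had 15.6, 20.8 and 11.5 CPM after saline and 5.73, 3.55 and 3.76 CPM after OTV. There it fell by 1.79 against saline (SE 0.31, edgeR adjusted p 0.0058), and this call held in all 16 alternatives. Astrocytes of OTV 2 held 1127145 UMIs in all, so the RPS13 level of that animal rests on few molecules.

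RPS12, a protein of the small subunit's head, had 21.7, 22.1 and 8.76 CPM in saline animals, 21.4, 29.9 and 23.9 CPM in ASO animals, and 8.92, 11.7 and 7.81 CPM in OTV animals. Saline 3 again lay among the OTV animals, while the ASO and OTV groups did not overlap. Against ASO it fell by 1.30 (SE 0.36, edgeR adjusted p 0.0374), a call lost without any 1 of the 6 animals compared (up to adjusted p 0.119). RPS12 was also called lower against saline in oligodendrocytes (log2 −1.01, edgeR adjusted p 0.0341) and in OPCs (log2 −0.94, edgeR adjusted p 0.044). The oligodendrocyte call was lost in 6 of 17 alternatives, among them without OTV 1, OTV 3, saline 1 or saline 2 (up to adjusted p 0.113). The OPC call was lost in 9 of 16, among them without ASO 1, ASO 2, any 1 OTV animal, saline 1 or saline 2 (up to adjusted p 0.29). The middle log2 difference of the 13 small subunit genes in all nuclei was −0.55 against saline and −1.16 against ASO.

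Among large subunit genes RPL35A was called in all nuclei, as was RPLP0 of the stalk. It had 25.3, 23.8 and 10.2 CPM in saline animals, 26.3, 44.3 and 30.8 CPM in ASO animals, and 16.1, 9.86 and 7.73 CPM in OTV animals. The ASO and OTV groups did not overlap, and OTV 1 was above saline 3. Against ASO it fell by 1.49 (SE 0.42, edgeR adjusted p 0.0419), and the call was lost without any of ASO 1, ASO 2, ASO 3, OTV 2, OTV 3, saline 1 or saline 2 (up to adjusted p 0.132). In myeloid cells RPL35A fell by 1.65 against ASO (SE 0.35, edgeR adjusted p 0.00949), a call that held in all 16 alternatives. The middle log2 difference of the 25 large subunit and stalk genes was −0.33 against saline and −0.92 against ASO.

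RPL37A, a zinc-binding protein of the large subunit, showed a small difference with little spread in OPCs. Its level there was 58.5, 64.3 and 55.0 CPM after saline, 60.4, 63.7 and 61.2 CPM after ASO, and 41.4, 31.1 and 35.8 CPM after OTV. The OTV animals lay below all 6 others, and saline 3 was close to its group. In OPCs it fell by 0.65 against saline (SE 0.13, edgeR adjusted p 0.00459) and by 0.66 against ASO (SE 0.13, edgeR adjusted p 0.00371). RPL18 in OPCs, with 39.9, 34.3 and 17.9 CPM after saline and 16.5, 11.1 and 11.8 CPM after OTV, fell by 1.15 (SE 0.31, edgeR adjusted p 0.0248). That call was lost without OTV 2, OTV 3, saline 1 or saline 2 (up to adjusted p 0.0844), whereas the RPL37A calls in OPCs held in all 16 alternatives. In astrocytes RPL15 had 28.1, 24.3 and 17.6 CPM after saline and 11.5, 10.6 and 8.67 CPM after OTV, and fell by 1.15 (edgeR adjusted p 0.0117), a call lost without OTV 3 (adjusted p 0.0592). RPL36A, a large subunit protein, was called against ASO in oligodendrocytes (log2 −1.12, edgeR adjusted p 0.0453), and the call was lost in 11 of 17 alternatives (up to adjusted p 0.337), among them without ASO 2, ASO 3, OTV 2, OTV 3 or any 1 saline animal.

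The stalk of the large subunit recruits the factors that drive elongation, and RPLP0 is its base. In all nuclei RPLP0 had 20.4, 20.2 and 13.7 CPM in saline animals, 25.1, 29.9 and 20.0 CPM in ASO animals, and 9.06, 7.28 and 4.81 CPM in OTV animals. The OTV animals lay below all others, including saline 3. RPLP0 fell by 1.25 against saline (SE 0.30, edgeR adjusted p 0.0248), but without OTV 2, OTV 3, saline 1 or saline 2 the adjusted p passed 0.05 (up to 0.0752). Against ASO it fell by 1.72 (SE 0.30, edgeR adjusted p 0.0062), which held in all alternatives.

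Within types the RPLP0 calls depended less on single animals. It fell against saline by 1.34 in oligodendrocytes (edgeR adjusted p 0.00654), by 1.27 in OPCs (edgeR adjusted p 0.0029), by 1.45 in myeloid cells (edgeR adjusted p 0.00549) and by 2.10 in astrocytes (edgeR adjusted p 0.00705). Each of these calls held in all alternatives. In astrocytes the levels were 19.1, 18.9 and 13.2 CPM after saline, 12.6, 20.3 and 12.7 CPM after ASO, and 5.23, 4.44 and 2.02 CPM after OTV. Astrocytes of OTV 2 and OTV 3 held 1127145 and 3459539 UMIs in all, so the RPLP0 levels of those animals rest on few molecules. GCN1, the gene next to RPLP0 in the RefSeq table, went the other way in all nuclei: it rose from a mean of 37.3 to 60.0 CPM after OTV (log2 0.79, edgeR adjusted p 0.00631).

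RPLP1, a mobile protein of the stalk, followed the common swing. In all nuclei it had 45.6, 40.2 and 19.0 CPM after saline, 39.3, 75.2 and 50.9 CPM after ASO, and 32.9, 13.3 and 11.3 CPM after OTV. OTV 1 was above saline 3, and no comparison passed the test in all nuclei. In OPCs, with 40.0, 33.3 and 20.1 CPM after saline and 16.3, 9.33 and 8.01 CPM after OTV, the groups did not overlap and RPLP1 fell by 1.34 (SE 0.31, edgeR adjusted p 0.0109). It was also called lower against saline in astrocytes (log2 −1.23, edgeR adjusted p 0.0304), a call lost with the sums thinned to equal totals and without OTV 2, OTV 3, saline 1 or saline 2 (up to adjusted p 0.12).

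Near copies of ribosomal protein genes are in other tissues limited in expression or linked to stress. RPL22L1 was called only in oligodendrocytes, where it had 11.4, 6.70 and 6.88 CPM after saline and 5.14, 4.70 and 4.09 CPM after OTV. It fell by 0.81 (SE 0.25, edgeR adjusted p 0.0483), and the call was lost in 13 of 17 alternatives. RPS27L, a target of the tumor suppressor p53, was called lower against saline in OPCs (log2 −1.05, edgeR adjusted p 0.031) and in myeloid cells (log2 −1.19, edgeR adjusted p 0.0397). In myeloid cells it had 19.9, 19.1 and 9.29 CPM after saline, 19.2, 16.9 and 21.5 CPM after ASO, and 8.65, 6.26 and 6.64 CPM after OTV. The OTV animals lay below saline 3 by little, the myeloid call was lost in 10 of 16 alternatives, and the OPC call without OTV 2, OTV 3, saline 1 or saline 2 (up to adjusted p 0.113).

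RPL3L, known from muscle, was at 1.72 to 4.17 CPM in all nuclei and was called in no type. RPL7L1, at 10.3 to 19.7 CPM, was called in no type either. RPS4Y2, named for a copy on the Y chromosome, had 212 UMIs over all animals although all 9 are labelled female, and passed the filter on low counts in all nuclei and oligodendrocytes only. Its levels were 0.250 to 0.458 CPM after saline and 0.488 to 0.907 CPM after OTV, and it was not called. The 3 genes never tested were RPL8 with 1 UMI, RPL10L with 11 UMIs and RPS4Y1 with 45 UMIs. RPL8 is a core protein of every cytosolic ribosome, and how its reads were counted was not tested.

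RPL4 in myeloid cells was the 1 gene called higher after OTV. RPL4 lines the exit tunnel for the growing protein. In myeloid cells it had 26.3, 25.6 and 18.6 CPM after saline, 30.2, 31.4 and 27.2 CPM after ASO, and 56.6, 49.2 and 45.1 CPM after OTV. The OTV animals lay above all others. RPL4 rose by 1.04 against saline (SE 0.19, edgeR adjusted p 0.00755, background 4.76% called higher), and with the sums thinned to equal totals the adjusted p was 0.0754. Against ASO it rose by 0.76 (edgeR adjusted p 0.0183, background 9.42%), a call lost in 5 of 16 alternatives. The myeloid nuclei of OTV animals also carried more oligodendrocyte marker RNA, 1094 to 1727 CPM against 759 to 914 CPM after saline and 958 to 1548 CPM after ASO. Their OPC markers summed to 236 to 356 CPM after OTV, 79.2 to 425 CPM after saline and 61.3 to 131 CPM after ASO, and their own myeloid markers (7 of 8 in the files) to 4321 to 5199 CPM after OTV against 5428 to 6308 CPM in all other animals. Their astrocyte markers summed to 683 to 1616 CPM after OTV, 1892 to 2548 CPM after saline and 783 to 1210 CPM after ASO, and their T cell markers to 10.6 to 19.7 CPM, 25.9 to 33.7 CPM and 14.5 to 109 CPM. Oligodendrocytes themselves had mean RPL4 levels of 12.6 CPM after saline, 18.3 CPM after ASO and 15.7 CPM after OTV. The part of RNA from other cell types in the RPL4 result was not tested.

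To see which genes departed from the common shift, each library was scaled by its middle ribosomal protein gene, so that a called gene moved by more or less than the others. On this scale many features that are no ribosomal protein genes move up against saline and ASO, and the share called either way was 20.0% in OPCs, 3.96% in myeloid cells, 29.0% in astrocytes and 8.61% in oligodendrocytes for OTV against saline. For OTV against ASO it was 57.2% in OPCs, 30.1% in myeloid cells, 41.5% in astrocytes and 43.5% in oligodendrocytes. The adjustment is over all features of the fit, so the more features the scale moves, the larger the unadjusted p that passes. The adjusted p of a departure thus gives no error rate among the ribosomal protein genes alone. In all nuclei 0 genes departed in either comparison (background 1.54% and 13.0%), but against ASO 4 did without saline 3 and 1 without OTV 1. RPS6 there departed by −1.17 against saline (edgeR adjusted p 0.153) and by −0.84 against ASO (edgeR adjusted p 0.136).

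RPL35, a large subunit protein at the end of the exit tunnel, departed upward in the most types. In all nuclei its level was 21.9, 20.8 and 11.1 CPM after saline, 16.2, 31.5 and 22.0 CPM after ASO, and 27.7, 17.2 and 21.9 CPM after OTV. The groups overlapped there. In myeloid cells it was 35.5, 33.1 and 14.6 CPM after saline, 31.6, 51.2 and 28.8 CPM after ASO, and 48.0, 48.3 and 38.5 CPM after OTV. The OTV animals lay above all saline animals there, but ASO 2 was the highest of all. In astrocytes the OTV animals had 19.5 to 23.1 CPM, above all ASO animals at 13.5 to 16.5 CPM and overlapping the saline animals. On the ordinary scale it was called in no type. Relative to the middle gene, RPL35 was higher after OTV than after ASO by 0.97 in oligodendrocytes (edgeR adjusted p 0.0452), by 1.13 in OPCs (edgeR adjusted p 0.00782), by 1.18 in myeloid cells (edgeR adjusted p 0.0294) and by 1.44 in astrocytes (edgeR adjusted p 0.00535). On this scale the middle feature of all also rose, by 0.99, 0.96, 0.85 and 0.82 in the same order of types. In oligodendrocytes RPL35 thus rose by no more than the middle feature. The astrocyte call held in all 10 alternatives, while that in oligodendrocytes was lost in 8, that in myeloid cells in 6 and that in OPCs in 1. Against saline RPL35 departed in OPCs by 1.15 (edgeR adjusted p 0.0192) and in astrocytes by 1.13 (edgeR adjusted p 0.0241). The middle feature of all rose there by 0.49 and 0.72. Both RPL35 calls were lost without OTV 3, saline 1 or saline 2, and the OPC call also without OTV 2 (up to adjusted p 0.186 in OPCs and 0.123 in astrocytes). WDR38, which overlaps RPL35 in the RefSeq table, had a mean of 0.136 CPM after saline and 0.0184 CPM after OTV.

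**Figure D4:**
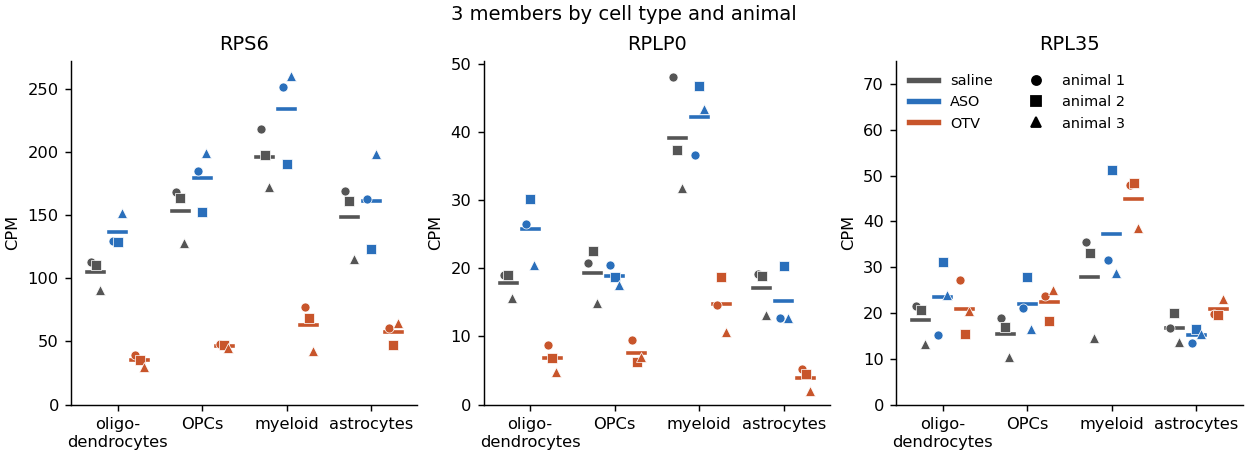
Levels of RPS6, RPLP0 and RPL35 in CPM (vertical axes, from 0) in 4 cell types, with a point for each animal and a bar for each group mean. RPS6 and RPLP0 are lower in every OTV animal than in any saline or ASO animal of the same type, whereas the RPL35 levels of OTV animals lie among or above the others.

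RPS6 departed downward in OPCs, by −1.13 against saline (edgeR adjusted p 0.0181) and −0.90 against ASO (edgeR adjusted p 0.0282). It did so in myeloid cells by −1.40 against saline (edgeR adjusted p 0.0306) and −1.09 against ASO (edgeR adjusted p 0.034). Each of the 4 calls was lost without some of the animals, with adjusted p up to 0.179. In oligodendrocytes the departure of RPS6 was −1.07 against saline (edgeR adjusted p 0.0955) and in astrocytes −0.55 (edgeR adjusted p 0.206). RPLP0 departed downward in astrocytes, by −1.37 against saline (edgeR adjusted p 0.0253), a call lost without OTV 3, saline 1 or saline 2 (up to adjusted p 0.101).

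RPL13 and RPL4 had the departures that held in all 10 alternatives beside that of RPL35. RPL13, a large subunit protein, had 99.9, 78.2 and 53.3 CPM in OPCs after saline, 49.3, 58.5 and 55.2 CPM after ASO, and 81.5, 48.9 and 79.1 CPM after OTV. The groups overlapped on this scale, and relative to the middle gene RPL13 was higher after OTV than after ASO by 1.42 (SE 0.36, edgeR adjusted p 0.00087). RPL4 in myeloid cells departed by 1.62 against ASO (SE 0.41, edgeR adjusted p 0.00457). The other departures were RPL17 upward and RPLP1 downward in OPCs against ASO, RPS13 downward and RPL3 upward in astrocytes against ASO, RPL4 upward in myeloid cells against saline, and RPL3 and RPL7L1 upward in astrocytes against saline. Each of these was lost without at least 1 animal.

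The counts of departing genes rested on few animals. Against saline they were 0 of 38 in oligodendrocytes (background 8.61% called either way on this scale) and 2 of 37 in OPCs (20.0%). In myeloid cells they were 2 of 37 (3.96%) and in astrocytes 4 of 37 (29.0%). For OPCs the count was 0 without OTV 2 or OTV 3, 1 without OTV 1, saline 1 or saline 2, and 5 without saline 3. For myeloid cells it was 0 without ASO 1, OTV 2 or OTV 3 and 1 without saline 1 or saline 2. For astrocytes it was 0 without OTV 3, saline 1 or saline 2, and 2 without OTV 2 or any 1 ASO animal. Against ASO the counts were 1, 5, 3 and 3 in the same order of types (backgrounds 43.5, 57.2, 30.1 and 41.5%). These counts are not read as an excess over all features. Leaving out 1 animal gave 0 to 6, 2 to 7, 1 to 5 and 1 to 7 against ASO. The highest values came without saline 3 in all but myeloid cells, where it was without OTV 1. The lowest values came in oligodendrocytes without ASO 2, ASO 3, OTV 2, OTV 3, saline 1 or saline 2, and in OPCs without ASO 1, OTV 2 or OTV 3. In myeloid cells they came without ASO 1, ASO 3, OTV 2 or OTV 3, and in astrocytes without ASO 2 or ASO 3.

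**Figure D5:**
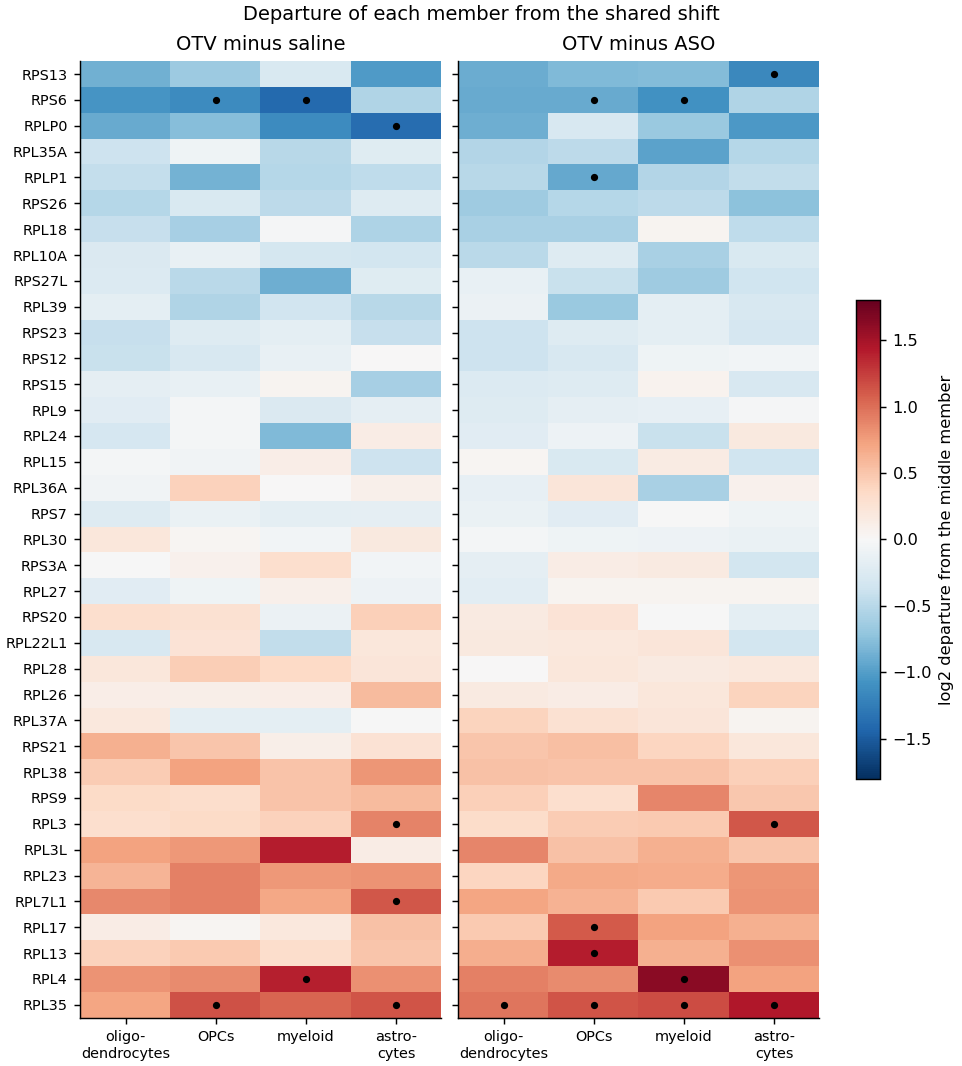
Departure of 37 ribosomal protein genes (rows, ordered by their mean) from the middle gene on the log2 scale (color bar), in 4 cell types, for OTV minus saline on the left and OTV minus ASO on the right. Dots mark departures with an edgeR adjusted p under 0.05, and RPL35 has the most dots, 4 of 4 types on the right.

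The ratio of small to large subunit RNA was lower after OTV, and by less when RPS6 was left out. In all nuclei the ratio of small to large subunit UMIs was 0.627, 0.652 and 0.687 in saline animals, 0.679, 0.588 and 0.681 in ASO animals, and 0.464, 0.491 and 0.470 in OTV animals. Without RPS6 the ratios were 0.426, 0.441 and 0.356 in saline animals, 0.433, 0.458 and 0.434 in ASO animals, and 0.382, 0.374 and 0.358 in OTV animals. With RPS6 the OTV animals lay below all others. Without it the lowest value was that of saline 3, while each OTV value was still below the lowest ASO value. The log2 difference from saline was −0.46 with RPS6 and −0.13 without it, and the difference from ASO was −0.45 and −0.25. Against ASO it was −0.67 and −0.39 in OPCs, −0.55 and −0.40 in astrocytes, −0.40 and −0.21 in oligodendrocytes, and −0.48 and −0.17 in myeloid cells. In each of these types 3 of 3 OTV animals were below all ASO animals, with and without RPS6. With RPS6, 3 of 3 were also below all saline animals in each type. Without it this held for 3 of 3 in oligodendrocytes, 2 of 3 in OPCs, 2 of 3 in myeloid cells and 1 of 3 in astrocytes.

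Myeloid cells had the highest summed share of UMIs from ribosomal protein genes of the 4 types in every animal. Oligodendrocytes and OPCs were close to each other. This share is not an amount per nucleus, since the types differ in depth. In saline 1 the median nucleus held 4374.5 UMIs in myeloid cells, 8486 in OPCs and 9168 in astrocytes. Nuclei named myeloid, which also carried endothelial and astrocyte marker RNA, had a higher summed share than oligodendrocytes, OPCs and astrocytes in 9 of 9 animals. On the log2 scale the mean difference over animals was 0.90 between myeloid cells and astrocytes (SD 0.26, n = 9). Oligodendrocytes were below myeloid cells by −0.67 (SD 0.20, n = 9) and OPCs by −0.65 (SD 0.18, n = 9). Between oligodendrocytes and OPCs the difference was −0.02 (SD 0.20, n = 9), with oligodendrocytes higher in 3 of 9 animals. Of 37 genes compared, 33 had their highest saline mean in myeloid cells, 2 in OPCs and 2 in astrocytes. The median ratio of the myeloid to the oligodendrocyte saline mean was 1.45, from 0.648 for RPL3L to 2.18 for RPLP0. For 25 genes the myeloid level was above the oligodendrocyte level in 9 of 9 animals, which held for 34.2% of 11324 features tested in all 4 types, and for 28 genes it was above the astrocyte level, against 31.5% of features.

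The exceptions to the myeloid pattern were few. RPL17 had a saline mean of 52.8 CPM in OPCs, 34.8 in myeloid cells, 22.0 in oligodendrocytes and 15.9 in astrocytes, and was highest in OPCs in 7 of 9 animals. RPL13 had a saline mean of 77.1 CPM in OPCs and 63.6 CPM in myeloid cells, and was highest in OPCs in 4 animals and in myeloid cells in 5. RPL37A, at 60.9 CPM in astrocytes and 49.9 CPM in oligodendrocytes, was highest in astrocytes in 5 of 9 animals. RPL3L had 4.77 CPM in astrocytes and 1.47 CPM in myeloid cells. RPS27L had close saline means of 16.1 CPM in myeloid cells and 15.9 CPM in OPCs. It was highest in OPCs in 4 animals and in myeloid cells in 2. RPS6 was lower in oligodendrocytes than in OPCs and in myeloid cells in 9 of 9 animals, with saline means of 105, 153 and 196 CPM. CPM are not divided by gene length, so these levels do not order one gene against another.

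The authors' 17 clusters divide the types further. In saline animals the summed genes had a mean of 1389 CPM in myeloid cluster 7 and 1232 CPM in myeloid cluster 9, the highest of the clusters with values in all 3 saline animals. The lowest of these were oligodendrocyte cluster 1 at 790 CPM and OPC cluster 13 at 798 CPM. Astrocyte cluster 6 had 823 CPM and the neuron cluster 861 CPM (SD 384, n = 3). In ASO animals oligodendrocyte cluster 8 had 2420 CPM (SD 806, n = 3), against 2060 and 1678 CPM in the myeloid clusters. The order of the clusters by their means was thus not the same in both groups. Of the 15 clusters in which all 3 groups had values, the OTV mean of RPS6 was below the saline mean and the ASO mean in each. Some of these means rest on few animals. Cluster 14 had 1 animal in each group, and clusters 11 and 12 had 1 ASO animal. Cluster 12 also had only 2 saline and 2 OTV animals, and cluster 10 had 2 saline animals. Cluster 8 had 2 OTV animals, at 0 and 42.6 CPM of RPS6. Where all 3 OTV animals had values, that mean ranged from 30.6 CPM in oligodendrocyte cluster 3 to 62.7 CPM in myeloid cluster 9.

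Against saline in all nuclei, the lists of other translation genes had middle differences above 0 after OTV, except the mitochondrial ribosomal proteins. Of 12 non-ribosomal genes with a TOP tract, the class that TOR controls together with ribosomal protein genes, 0 passed edgeR's test for OTV against saline in all nuclei, and the middle log2 difference was 0.13. By type it was 0.02 in oligodendrocytes, −0.17 in OPCs, 0.23 in myeloid cells and 0.07 in astrocytes. EEF1A1, the most used elongation factor, had means of 68.7 CPM after saline and 60.4 CPM after OTV (log2 −0.08, edgeR adjusted p 0.905). Of 28 initiation and elongation factors, 4 were called higher (background 5.72% higher) and 0 lower (9.94%), with a middle difference of 0.29. EIF4G1, the scaffold of cap-dependent initiation, rose from a mean of 19.8 to 49.6 CPM (log2 1.43, edgeR adjusted p 0.0038).

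Of 44 ribosome biogenesis genes 7 were called higher (background 5.72%) and 3 lower (9.94%), with a middle difference of 0.28. UBTF, which activates ribosomal DNA, rose by 1.06 (edgeR adjusted p 0.0064), and NOP56, a core protein of nucleolar RNA particles, by 1.19 (edgeR adjusted p 0.0112). POLR1C, a subunit shared by RNA polymerases I and III, fell by 1.02 (edgeR adjusted p 0.0031). Of 14 genes of the S6 kinase and TOR pathway 5 were called higher (background 5.72%) and 0 lower (9.94%), among them RPS6KB2, an S6 kinase, with means of 9.77 CPM after saline and 22.5 CPM after OTV (log2 1.31, edgeR adjusted p 0.0082). TSC2, an inhibitor of TOR, rose by 1.28 (edgeR adjusted p 0.0071).

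Mitochondrial ribosomal proteins, which belong to a separate ribosome, had 0 of 56 genes called higher (background 5.72%) and 7 lower (9.94%), the latter a share near the background, with a middle difference of −0.20. MRPL50 fell from a mean of 42.1 to 4.31 CPM (log2 −3.17, edgeR adjusted p 0.0047), and MRPS18A from 111 to 50.1 CPM (log2 −1.05, edgeR adjusted p 0.008). Of 33 tested nuclear-encoded respiratory chain genes 3 were called higher and 2 lower against the same backgrounds, with a middle difference of −0.31. RNA encoded by the mitochondrial genome, a sign of cytoplasmic carryover, took 0.00452 to 0.0264% of UMIs in saline animals, 0.000368 to 0.000793% in ASO animals and 0.0545 to 0.145% in OTV animals. It was highest in the group with the lowest ribosomal protein share. Within each group, though, the animal with the most of it (saline 1, ASO 2 and OTV 1) also had the highest ribosomal protein share. Saline 3 had the least of both among saline animals and ASO 1 among ASO animals. Among OTV animals OTV 2 had the least mitochondrial RNA (0.0545%) and OTV 3 the lowest ribosomal protein share (0.0483%). The part of mitochondrial RNA in the result was not tested.

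The deposited table also gives a ribosomal percentage for each nucleus, which sums all 51 features whose names start with RPS or RPL. Its mean per animal was 0.172 to 0.192% after saline, 0.188 to 0.252% after ASO and 0.137 to 0.188% after OTV. The 41 ribosomal protein genes made up 32.0 to 66.8% of the UMIs of those features, lowest in saline 3, and the rest came from other genes such as the S6 kinase gene RPS6KC1. The 10 other features held 0.0806 to 0.122% of UMIs with no such order of the groups. The group mean of the deposited percentage was 0.185% after saline and 0.155% after OTV.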

How the data were processed

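Single nuclei of thalamus from 9 animals, 3 per group, were analysed from 1 deposited matrix of raw UMI counts per feature and nucleus and the authors' deposited table of nuclei with animal, cell type, cluster, doublet score and a percent of ribosomal features. Per the submitters' processing notes, Cell Ranger 6.1.2, Seurat 4 and the build GRCh38.p13 were named. The features carry identifiers of Macaca fascicularis, so the annotation used is not settled and no coordinates are given. The authors' doublet column calls every nucleus a singlet, and no caller was run. The smallest nucleus held 1018 UMIs, and 0 columns of per-sample values were left unused.

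For each animal, counts were added up over its nuclei, together and by type, for types with at least 20 nuclei in every animal. Neurons missed that limit. The sums were tested with edgeR 4.0.16 (R 4.3.3, limma 3.58.1; TMM, filterByExpr by group, robust quasi-likelihood, all 9 animals in 1 fit), with Benjamini-Hochberg adjustment over all features of a fit and a threshold of 0.05. Departures used the same fit with each library scaled by its middle ribosomal protein gene. Differences of single animals within a group used log2 of CPM plus 0.5. CPM are counts per 1000000 UMIs of the animal and type. Ratios and shares are descriptions. The difference of RPS6 between types was tested by exact permutation over the 280 partitions of the animals, two-sided, with Benjamini-Hochberg adjustment over 6 pairs of types. Nuclei were thinned to 1000 UMIs for shares of nuclei. DESeq2 1.42.0 served as an alternative. Other tools were Python 3.11.15, numpy 2.4.6, scipy 1.17.1 and matplotlib 3.10.9. The fitting code was tested on simulated data.

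The ribosomal protein genes and the other lists were chosen with earlier results of these data known. Genes were named by rule: RPS6, the stalk genes and near copies always, up to 6 called genes in each direction per comparison in all nuclei, and departing genes. Others were named after their values were seen, as examples. Of the symbols, 40 of 41 were in the RefSeq table of T2T-MFA8v1.1, which was used for names and neighbours only, and no sequence was used here. Small nucleolar RNA host genes gave 0 features. The animals are separate animals by their labels.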

Additional observations from a re-analysis of the deposited data

How the results depend on the processing

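Among the genes whose calls were followed through the alternatives, no call changed direction. These do not include all called genes, RPL9 and RPL10A among those left out. Some small differences with no test changed sign. Leaving out 1 animal gave −0.052 to 0.054 for the log2 ratio of small to large subunit genes between ASO and saline in all nuclei (−0.016 in all animals), and gave values on both sides of 0 for the same ratio in oligodendrocytes and myeloid cells. It gave −0.062 to 0.30 for the summed share in astrocytes between ASO and saline (0.17 in all animals), and −0.059 to 0.0080 between oligodendrocytes and OPCs (−0.021 in all animals). No paired analysis was possible because the labels give no number that links animals across groups. For OTV against ASO in all nuclei, the 5 called genes became 17 with DESeq2, 13 with only the 6 animals compared, 9 with sums thinned to equal totals, 19 with a term for the regional astrocyte score and 14 without saline 3 and ASO 3 together, an alternative chosen after seeing the data. For OTV against saline the 2 called genes became 4 with the regional term and 4 without both animals. The count for ASO against saline became 1 with DESeq2, in all nuclei and in oligodendrocytes. In oligodendrocytes the count for OTV against saline was 2 with only the 6 animals compared and 2 with thinned sums. In OPCs it was 19 with the regional term and 19 without both animals. In astrocytes it was 7 with thinned sums, and in myeloid cells the OTV against ASO count was 15 with the regional term. With a scale from the summed genes without RPS6, the departing count in oligodendrocytes against ASO was 0. Leaving out 1 animal gave counts of 1 to 4 (OTV against saline) and 2 to 16 (OTV against ASO) in all nuclei, 2 to 7 and 5 to 21 in oligodendrocytes, 4 to 16 and 9 to 22 in OPCs, 3 to 5 and 4 to 15 in myeloid cells, and 3 to 17 and 6 to 19 in astrocytes. Departing counts ranged from 0 to 4 in all nuclei against ASO, 0 to 6 in oligodendrocytes against ASO, 0 to 5 and 2 to 7 in OPCs (0 to 1 for ASO against saline), 0 to 2 and 1 to 5 in myeloid cells, and 0 to 6 and 1 to 7 in astrocytes. Without RPS6 the log2 ratio of small to large subunit genes in all nuclei was 0.12 between ASO and saline, −0.13 between OTV and saline and −0.25 between OTV and ASO, −0.17 and −0.21 for the OTV comparisons in oligodendrocytes, 0.21, −0.18 and −0.39 in OPCs, 0.031, −0.14 and −0.17 in myeloid cells, and −0.27 and −0.40 for the OTV comparisons in astrocytes. The log2 ratio of the share of nuclei with RPS6 was −1.77 in oligodendrocytes (OTV against ASO, 2000 UMIs), 0.49 in OPCs (ASO against saline, 500 UMIs), and in astrocytes 0.59 (ASO against saline, 500 UMIs), −1.32 (OTV against saline, 2000 UMIs), −1.62 and −1.46 (OTV against ASO, 500 and 2000 UMIs). The share of all features called under each alternative is not given, so a changed count may go with a change over all features. The cause of these changes was not tested. The fewest UMIs of the summed genes in an animal were 504 in astrocytes, 596 in myeloid cells and 1016 in OPCs, which limits single genes there.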
